A study of Mus musculus with 24 samples.

Results

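Neutrophils and monocytes sorted from the same preparations of mouse colon tumours were compared across all genes. The 6 libraries were taken by their labels out of the 24 of the series, 3 of tumour neutrophils (Tu_Ne) and 3 of tumour monocytes (Tu_Mo), and donor numbers I, II and V each gave 1 library of either population. All 6 carried the strain label APC/Min. The mouse used was Apc Min/+, which has a germline truncating mutation in 1 copy of the tumour suppressor Apc and develops intestinal adenomas. Per the methods, each preparation was the pooled tissue of 13 to 15 mice, so a donor number is a pool and not an animal, and p values measure the spread between such pools. Neutrophils had been gated as CD11b+ F4/80- Ly6G hi and monocytes as CD11b+ F4/80 int Ly6C hi MHCII-, after enrichment of leukocytes on Percoll. Per the methods, tumours were brought on by 1 week of 1.5% dextran sodium sulphate (DSS, a colitis-inducing polymer) in the drinking water, and the animals, of both sexes, were killed 4 weeks later at 3 to 4 months of age. For 1 comparison the same populations from colon lamina propria (LP) were used, labelled healthy and C57/BL, with 3 libraries each from donor numbers III, IV and V. Per the methods the control mice had received DSS as well, at a lower concentration, and LP leukocytes came from the interface of another Percoll gradient. LP tissue was first incubated with EDTA to remove epithelium and was then digested with collagenase for longer. Tumours were digested with collagenase and DNase, without that EDTA step.

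Neutrophils and monocytes are the short-lived myeloid cells that the bone marrow sends to inflamed tissue and tumours. Neutrophils are built in advance: their granule proteins are made in marrow precursors, and mature cells rely on glycolysis, carry few ribosomes and little endoplasmic reticulum, and respond to chemoattractants such as CXCR2 ligands and formyl peptides. Monocytes enter through the chemokine receptor CCR2, keep a secretory and lysosomal apparatus, and can become macrophages or antigen-presenting cells under CSF1.

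Of 17301 genes deposited, 12878 had a mean of at least 1 RPKM (reads per kilobase of transcript, scaled to library size) in at least 1 of the 8 groups of the series and were tested. With limma's moderated test on the log2 RPKM values and Benjamini-Hochberg adjustment, 2997 genes (23.3%) were higher and 4489 (34.9%) lower in tumour neutrophils than in tumour monocytes at an adjusted p below 0.05. The 3 libraries of one population lay entirely above those of the other for 3452 genes (26.8%, neutrophils above) and 4553 genes (35.4%, neutrophils below). A change of over 8-fold (3 on the log2 scale) was called for 785 genes higher and 1396 lower, and of over 32-fold (5 on the log2 scale) for 345 and 438. Tumour monocytes held more genes at a mean of at least 1 RPKM (9371 against 8612), and tumour neutrophils more genes at a mean of at least 100 RPKM (799 against 473). Values are RPKM of single libraries in the order of pools I, II and V unless a range is given, and a library without a read carries the small value that the 0.25 reads added by the authors give.

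**Figure D1:**
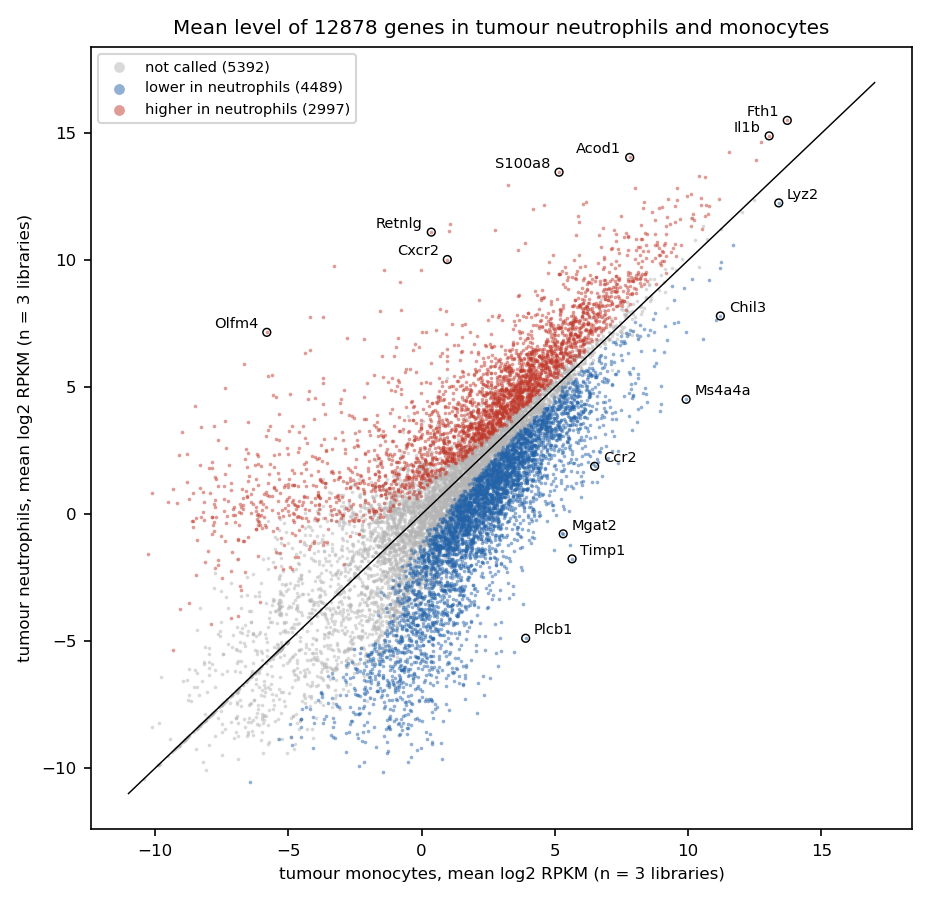
Mean log2 RPKM of the 12878 genes tested in tumour monocytes (horizontal) and tumour neutrophils (vertical), 3 libraries each; the line marks equal levels, red and blue points are genes called higher (2997) and lower (4489) in neutrophils, and grey points were not called (5392). Retnlg, S100a8 and Acod1 stand far above the line, and Ms4a4a, Ccr2 and Plcb1 far below it.

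The size of these numbers, and the direction of some genes, rests on how libraries were scaled. The deposited values used library sizes that were 0.441 to 0.458 times the summed reads in tumour neutrophils but 0.929 to 1.03 times in tumour monocytes, each relative to the mean of the series, so a neutrophil read counted for more. With plain summed reads as library sizes log2 fold changes moved by a median of -1.13, and 1343 genes were higher and 7347 lower. Of the 2997 genes called higher as deposited, 750 changed sign with summed reads and 225 were called lower. With quantile normalisation 158 of them changed sign and 43 were called lower. With each library centred on its median gene, the fold changes moved by 0.47, and 3875 were higher and 3335 lower. The median log2 fold change of all genes tested was -0.36 as deposited, -1.49 with summed reads and 0.11 with centring. A count of list members called is to be read against the 23.3% higher and 34.9% lower among all genes, and a list's median against -0.36. The share of a library's reads in a list is given where it helps. It divides by the summed reads, and so carries the scaling that gave 1343 genes higher and 7347 lower. Library preparation began from a fixed mass of RNA, and in such bulk samples fewer cells of a type and less RNA per cell cannot be told apart.

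Tumour neutrophil libraries held 15886920 to 26693232 reads on genes and tumour monocyte libraries 24816118 to 30575439. Over 3 reads were found for 12038 to 12800 genes in the former and 13738 to 14305 in the latter. The 10 most read genes took 16.4% to 17.5% of reads in neutrophils and 12.6% to 15.2% in monocytes, and mitochondrial genes 0.329% to 0.412% and 0.994% to 1.58%. Between libraries of 1 population Pearson's r across genes, which are not independent, was 0.86 to 0.888 in neutrophils and 0.904 to 0.924 in monocytes.

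The sort was visible in its own markers, which are given as a check and not as a result. Ly6g, which encodes the antigen of the neutrophil gate, stood at 415, 250 and 179 RPKM in neutrophils from pools I, II and V and at 0.151, 0.986 and 1.32 RPKM in monocytes. Cxcr2, the receptor for CXCL1 and CXCL2, stood at 929, 1132 and 1080.1 RPKM against 2.37, 1.49 and 2.11 RPKM, that is 35313, 28104 and 25262 reads against 216, 128 and 166 reads. S100a8, a subunit of calprotectin, stood at 12096, 13505 and 8979 RPKM against 60.2, 30.9 and 24.5 RPKM. In each of the 3 genes the groups lay far apart. In the other direction Ccr2 stood at 6.06, 2.84 and 2.94 RPKM in neutrophils and 85.7, 70 and 121 RPKM in monocytes, and F13a1, coagulation factor XIII A, at 12.1, 12.2 and 6.51 RPKM and 231, 174 and 341 RPKM. All 14 neutrophil markers were called higher in neutrophils, with a median log2 fold change of 7.95, and 13 of 14 monocyte markers lower, with a median of -4.45. The neutrophil markers took 5.07% to 5.26% of reads in neutrophils and 0.455% to 0.476% in monocytes, and the monocyte markers 0.105% to 0.111% and 1.09% to 1.25%. For the neutrophil markers the mean level in monocytes was 0.0621% (Retnlg) to 11.5% (Trem1) of that in neutrophils.

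Several markers crossed the gates. Ly6c2, one of the genes behind the Ly6C antigen of the monocyte gate (14.1% of its 51-base stretches occur in other genes), was the marker not called: it stood at 131, 82 and 54.6 RPKM in neutrophils and 72.1, 53.6 and 58.1 RPKM in monocytes, and the groups overlapped (log2 fold change 0.46 ± 0.85 (SE), adjusted p = 0.67). Csf1r, the receptor for CSF1, was lower in neutrophils but still at 159 to 193 RPKM there, against 535 to 587 in monocytes (-1.70, adjusted p = 4.6e-09). Mpeg1, perforin-2, stood at 152 to 209 RPKM against 265 to 312. The monocyte gate left out MHCII+ cells, yet transcripts of the class II chains were present in both populations: H2-Aa stood at 56.1, 114 and 75.5 RPKM in neutrophils and 56.5, 80.2 and 104 RPKM in monocytes, and H2-Ab1 at 94.7 to 207 and 182 to 285 RPKM (adjusted p = 0.25, and 0.039 with the donor number as a block). Cd74, the invariant chain, stood at 205 to 383 and 486 to 711 RPKM (adjusted p = 0.055, and 0.0029 with the block). H2-Ab1 and Cd74 were called lower in neutrophils with summed reads (-1.95 and -2.23) and with quantile normalisation (-1.70 and -2.33).

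Markers of other cells were measured in both populations. Of 10 epithelial markers tested limma called 0, with 0 higher and 0 lower at an unadjusted p under 0.05 and 0 by voom, and the list took 0.0179% to 0.0335% of reads in neutrophils and 0.0266% to 0.0787% in monocytes. Epcam stood at 43.8, 22.7 and 35 RPKM in neutrophils and 14.6, 46 and 30.3 RPKM in monocytes, and Krt8 at 53.9 to 128 and 35.5 to 119.9 RPKM. Of 12 macrophage markers 7 were lower and 1 higher (Lyve1). With voom 3 were lower and 0 higher, and on the log2(RPKM + 1) scale 5 and 0. Among them the F4/80 gene Adgre1 stood at 36.7 to 64.7 against 65.1 to 108 RPKM and the complement gene C1qa at 3.27 to 6.15 against 5.95 to 7.42 RPKM, the latter not called. With summed reads C1qa was called lower (-1.59). Of 4 eosinophil, mast cell and basophil markers tested, 2 were higher in neutrophils. Siglecf stood at 18.6, 29.3 and 23.3 RPKM in neutrophils and 0.0749, 0.0285 and 0.875 RPKM in monocytes, and Ccr3, the eotaxin receptor, at 1.54 to 3.71 and 0.00271 to 0.38 RPKM, so these eosinophil markers were not at 0 in the neutrophil libraries; the list took 0.00281% to 0.00456% of reads in neutrophils and 1.96e-05% to 0.000528% in monocytes. B and plasma cell markers took 0.00535% to 0.0118% of reads in neutrophils and 0.00365% to 0.00647% in monocytes, and 3 of 7 were called higher. Among them Igha stood at 1.87, 47.7 and 12.4 RPKM in neutrophils and 0.128, 0.626 and 2.81 RPKM in monocytes, high in pool II, low in pool I and with groups that overlapped. The call for Igha was lost with voom (adjusted p = 0.41), with summed reads (0.12) and on the log2(RPKM + 1) scale (0.089). Of 4 T and NK cell markers tested 1 was called higher (Cd3d), but 0 with the donor number as a block or with summed reads. Of 6 fibroblast and endothelial markers 1 was called higher (Col1a1), but the list took 0.00108% to 0.00167% of reads in neutrophils and 0.0022% to 0.00763% in monocytes. Of 7 erythroid and platelet markers 2 were called higher and 2 lower, and of 7 dendritic cell markers 2 lower (Flt3 and Dpp4). The part that such cells have in the differences below was not tested.

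**Figure D2:**
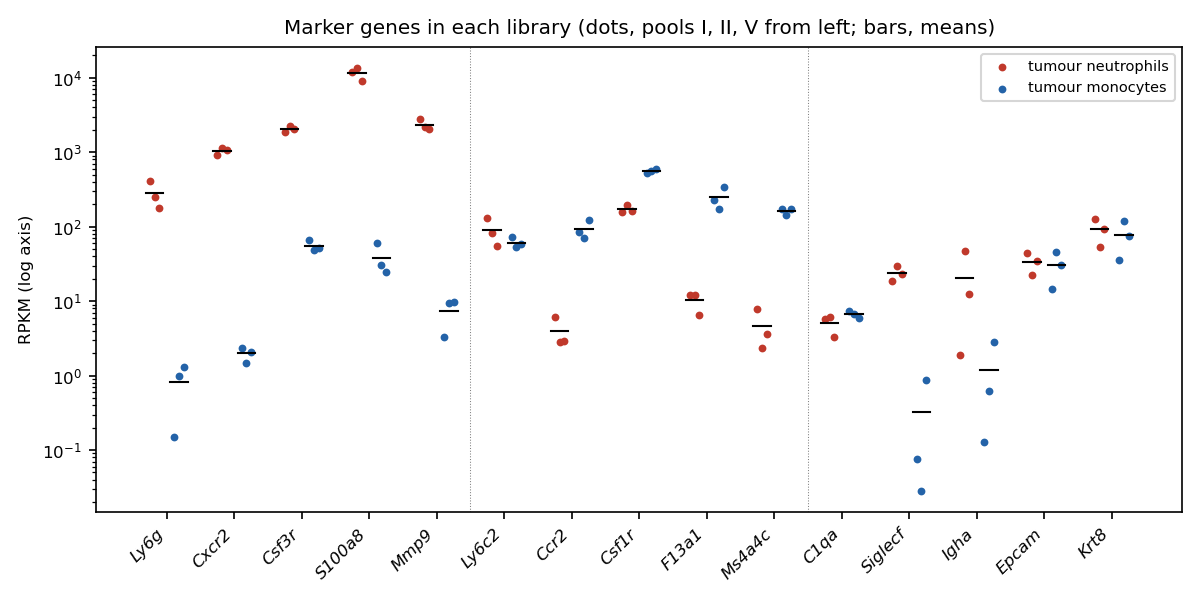
RPKM on a log axis of 5 neutrophil markers, 5 monocyte markers and 5 markers of other cells in each tumour neutrophil (red) and tumour monocyte (blue) library; dots are pools I, II and V from left to right and bars are means of 3 libraries. The 5 neutrophil markers do not overlap between populations, Ly6c2 does, and Epcam and Krt8 lie in the same range in both populations.

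To show the DNA next to these genes, the RefSeq promoters (250 bases before to 50 after the start, GRCm38.p6) of 2 genes that mark either population follow, all on the + strand and written 5′ to 3′. Capitals mark any match, on either strand, to the C/EBP half-site pair TTGCNNAA or the PU.1 core AGGAAGT, factors known for granulocyte and myeloid genes; no match says only that these letters are not in the window.
S100a8, chr3:90668821-90669120: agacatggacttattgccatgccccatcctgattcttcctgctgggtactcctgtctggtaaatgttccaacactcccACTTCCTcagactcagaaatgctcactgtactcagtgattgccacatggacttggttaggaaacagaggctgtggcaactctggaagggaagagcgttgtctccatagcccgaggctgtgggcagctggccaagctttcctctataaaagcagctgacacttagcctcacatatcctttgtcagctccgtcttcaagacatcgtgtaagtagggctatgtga
Retnlg, chr16:48872358-48872657: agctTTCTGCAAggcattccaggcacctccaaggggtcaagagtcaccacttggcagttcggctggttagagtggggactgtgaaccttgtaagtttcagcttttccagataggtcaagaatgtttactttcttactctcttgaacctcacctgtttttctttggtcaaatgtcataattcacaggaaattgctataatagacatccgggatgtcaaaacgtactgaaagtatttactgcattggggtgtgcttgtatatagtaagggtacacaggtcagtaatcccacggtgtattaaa
Ccr2, chr9:124101933-124102232: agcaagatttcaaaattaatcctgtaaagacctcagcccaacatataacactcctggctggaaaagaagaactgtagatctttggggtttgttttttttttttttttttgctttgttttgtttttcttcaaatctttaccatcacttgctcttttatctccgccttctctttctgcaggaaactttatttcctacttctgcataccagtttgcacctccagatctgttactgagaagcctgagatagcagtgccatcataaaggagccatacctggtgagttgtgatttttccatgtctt
Ms4a4a, chr19:11375238-11375537: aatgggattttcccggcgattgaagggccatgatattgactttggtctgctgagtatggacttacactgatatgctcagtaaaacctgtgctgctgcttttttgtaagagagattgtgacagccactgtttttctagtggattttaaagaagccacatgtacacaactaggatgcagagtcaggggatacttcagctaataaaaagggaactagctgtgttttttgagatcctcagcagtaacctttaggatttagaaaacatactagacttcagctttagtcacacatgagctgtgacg
Of 9067 tested genes with a promoter in the table, 10.4% held the C/EBP letters and 11.8% the PU.1 letters, against 10.8% and 9.35% of all 32851 promoters. Among 2139 genes higher in neutrophils the shares were 11.9% and 15%, and among 3388 lower genes 9.65% and 11%. The C/EBP letters were in 3 of 13 neutrophil markers with a promoter and in 0 of 11 monocyte markers, the PU.1 letters in 3 of each.

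The 12 largest rises among called genes of at least 10 RPKM without overlap were led by Chil1 and Olfm4. Chil1, a chitinase-like protein of the specific granules (chromosome 1, 134182176 to 134190181, + strand), stood at 939, 901 and 819.9 RPKM in neutrophils against 0.467, 0.71 and 0.00316 RPKM in monocytes (log2 fold change 13.09 ± 2.16 (SE), adjusted p = 3.2e-05). Olfm4, olfactomedin 4 of a subset of neutrophils, stood at 198, 109.8 and 135 RPKM against 0.0054 to 0.194 RPKM (12.97 ± 1.65, adjusted p = 1.3e-06). Retnlg, a resistin-like secreted protein (chromosome 16, 48872621 to 48874496, + strand), stood at 3089, 2380.2 and 1476 RPKM against 2.32, 0.713 and 1.28 RPKM (10.75 ± 1.23, adjusted p = 3.4e-07). Prok2, the chemokine-like prokineticin Bv8, stood at 130.4 to 346 RPKM against 0.00586 to 0.516. In 4 of the 12 leading genes no monocyte library had a read, so only a bound can be given, against a floor of 3 reads in each library: the tight junction gene Cldn1 was at least 599-fold higher in neutrophils (14.5 to 24.7 RPKM), the interleukin 8 type receptor Cxcr1 at least 446-fold (25.6 to 38.8 RPKM), Amer2 at least 280.3-fold and Krt86 at least 205-fold. Krt83, with 2 reads in all monocyte libraries together, was 5266-fold higher (95% exact counting interval 1457 to 43497). Cmah, which makes a form of sialic acid, stood at 11 to 16.1 against 0.000889 to 0.0293 RPKM. The receptor genes Mrgpra2a (205 to 245 RPKM) and Mrgpra2b (723 to 839 RPKM) completed the list. These last are uncertain as single genes, since 87.2% and 81% of their 51-base stretches occur in other genes. For Krt86 the share was 43% and for Krt83 21.6%.

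The 12 largest falls, chosen in the same way, were led by Msantd3 and Plcb1. Plcb1, a phospholipase C downstream of G protein receptors, stood at 0.223, 0.171 and 0.00102 RPKM in neutrophils against 15.9, 13.9 and 15.1 RPKM in monocytes (-8.79 ± 1.59, adjusted p = 9e-05). Timp1, the inhibitor of matrix metalloproteinases, stood at 0.00998, 1.25 and 2.06 RPKM against 55.4, 41.4 and 54.5 RPKM (-7.40 ± 1.30, adjusted p = 6.4e-05). Ms4a4a, a tetraspan membrane protein of monocytes and macrophages (chromosome 19, 11375523 to 11392790, + strand), was the most abundant of the 12 and stood at 26.9, 18.8 and 24.2 RPKM against 954, 879 and 1096 RPKM (-5.40 ± 0.36, adjusted p = 2.2e-10). Its neighbours on chromosome 19 moved the same way, Ms4a4c from 146 to 173 RPKM in monocytes to 2.32 to 7.79 in neutrophils and Ms4a6c from 60.3 to 72.3 to 2.1 to 2.34. Mgat2, an enzyme of N-glycan branching, stood at 0.203 to 2.09 against 38 to 40.7 RPKM, Gab1, an adaptor of growth factor receptors, at 0.128 to 2.49 against 34.4 to 42.2, and Hes1, a target of Notch, at 0.132 to 0.319 against 9.01 to 18.1. Dse (0.0638 to 0.799 against 13.3 to 14 RPKM), the interferon-inducible Ifi205 (0.12 to 0.72 against 23.3 to 51.6), Htr7, a serotonin receptor (0.00261 to 1.01 against 8.08 to 12.8), Nt5dc2 (0.0063 to 0.348 against 11.6 to 16.3) and Msantd3 (0.00449 to 0.627 against 8.18 to 14.1) were the others. S100a4, a calcium-binding protein, stood at 0.0151 to 2.47 against 38.2 to 58.6 RPKM, with 47.3% of its stretches also in other genes.

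Several of the most abundant transcripts were shared and differed in amount. Fth1, ferritin heavy chain, led in neutrophils at 53014, 49831 and 38251 RPKM against 17538, 14543 and 9685 RPKM in monocytes (1.78 ± 0.33, adjusted p = 0.00013). Il1b, interleukin 1 beta, stood at 32369, 35612 and 25024 RPKM against 10008, 8491 and 7075 RPKM (1.86 ± 0.28, adjusted p = 1.3e-05). Cd14, the lipopolysaccharide co-receptor often used as a monocyte marker, was higher in neutrophils, at 25790, 23803 and 27137 RPKM against 7952, 5992 and 6617 RPKM (1.91 ± 0.27, adjusted p = 4.3e-06). Acod1, which makes itaconate and so limits succinate dehydrogenase, differed more: it stood at 16339, 16585 and 18188 RPKM in neutrophils against 369.6, 159 and 191 RPKM in monocytes (6.25 ± 0.22, adjusted p = 9e-14). Cxcl2, a CXCR2 ligand, stood at 14108 to 24885 RPKM against 2272 to 3855. On the monocyte side Lyz2, lysozyme, stood at 5789, 5058 and 4037 RPKM in neutrophils and 12872, 9853 and 10049 RPKM in monocytes (-1.14 ± 0.27, adjusted p = 0.0011), but with centring the fold change was -0.67 and the call was lost (adjusted p = 0.092). The lysosomal precursor Psap stood at 942 to 1072 against 2275 to 2613 RPKM, the matrix protein Tgfbi at 811 to 837 against 1980.3 to 2678, and mt-Co1, with 50.6% of stretches shared with other genes, at 1477 to 1720.1 against 2883 to 3521 (its call was lost with centring, at -0.59). Chil3 (Ym1), a chitinase-like protein of granules and of monocytes, stood at 296, 169 and 224 RPKM against 2212, 2146 and 2789 RPKM (-3.40 ± 1.27, adjusted p = 0.027). For Chil3 26.2% of the stretches occur in other genes. The call for Chil3 was lost with centring (-2.93) and without any 1 of the 3 monocyte libraries or the neutrophil library of pool II or V (-3.47 to -3.20). In Fth1, Il1b, Cd14 and Cxcl2 neutrophils lay 3.43- to 6.73-fold above monocytes, but with quantile normalisation the log2 fold changes of Fth1, Il1b and Cd14 were 0.21, 0.18 and 0.46 and their calls were lost.

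Granule genes lay far on the side of neutrophils. Of 19 tested, 16 were higher and 2 lower in neutrophils, with a median log2 fold change of 5.87 against -0.36 for all genes. Genes of the specific and gelatinase granules were high: Ltf, lactoferrin, stood at 1412, 341 and 378 RPKM against 0.745, 0.622 and 0.398 RPKM, Ngp, neutrophilic granule protein, at 5151, 1668 and 2415 RPKM against 2.4, 1.53 and 2.41 RPKM, and Camp, the cathelicidin, at 69.9, 20.7 and 16.1 RPKM against 0.0705, 0.0148 and 0.144 RPKM. In these 3 genes pool I was the highest of the neutrophil libraries, and every neutrophil library lay above every monocyte library. Lcn2, the iron-binding lipocalin, stood at 1182 to 2303 against 9.63 to 25.9 RPKM, and the metalloproteinases Mmp8 at 1621 to 2739.8 against 68.6 to 154 and Mmp9 at 2035 to 2811 against 3.34 to 9.71. Of 2 azurophil genes tested, 1 was called higher in neutrophils, by 7.21 on the log2 scale. Mpo and Elane, also azurophil, did not reach the minimum for the test. The other azurophil gene tested, Prtn3, proteinase 3, was low in both and not called (0.329 to 0.833 against 1.48 to 2.47 RPKM without overlap, adjusted p = 0.14). Prtn3 was called lower on the log2(RPKM + 1) scale (adjusted p = 3.3e-05), with only the libraries compared (0.02), with voom (0.018) and with summed reads (0.021). The 2 lower members were Chil3 and Cybb, the membrane subunit of the oxidase (98.9 to 171 against 246 to 319 RPKM, -1.24, adjusted p = 9.6e-05). Of 14 S100 and stefin genes 12 were higher and 2 lower. S100a9 stood at 8696, 9479 and 5999.6 RPKM against 16.6, 8.49 and 6.23 RPKM, and Stfa2, a cysteine protease inhibitor with no read in any monocyte library, was at least 165-fold higher. S100a4 and S100a10 were lower in neutrophils, S100a10, like S100a8 on chromosome 3, at 2.37 to 5.68 against 41.5 to 65.6 RPKM. The median of the list was 7.91, and 6.08 with genes unread in monocytes set at their bound.

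Of 27 transcription factors of both lineages 6 were higher and 12 lower in neutrophils, with a median of -0.53 (4 and 17 with summed reads, 10 and 10 with centring). Among all genes 23.3% were higher and 34.9% lower. The share higher was close to that among all genes, and the list's median less that of all genes was -0.17. Of the 16 known from monocytes and macrophages 10 were lower, 2 were higher and 4 were not called. The monocyte factors Irf8 (1.52 to 1.91 against 20.2 to 31.2 RPKM, -3.76 ± 0.19, adjusted p = 6.9e-12) and Klf4 (0.768 to 1.93 against 12.7 to 18.2, -3.35) were lower in every neutrophil library than in any monocyte library. Tfec and the oxysterol receptor Nr1h3 were lower too, with log2 fold changes of -4.54 and -3.63. Mxd1, an antagonist of MYC, stood at 5111, 5089.9 and 4819 RPKM in neutrophils against 354, 264 and 357 RPKM in monocytes (3.96 ± 0.31, adjusted p = 2e-09). The immediate early genes Junb (5363 to 6793 against 925 to 1045 RPKM), Egr1 (347 to 435 against 12.3 to 43.8) and Nr4a1 (3711 to 4983 against 244 to 420.3) were also higher. Spi1, which encodes PU.1, stood at 182 to 403 against 202 to 219 RPKM and was not called (adjusted p = 0.54), but was called lower with quantile normalisation and with summed reads (-0.81 and -0.84). Of the C/EBP family Cebpa was lower (0.00337 to 0.612 against 2.69 to 4.23 RPKM, -5.42, adjusted p = 0.00024), and Cebpb, Cebpd and Cebpe were not called. Cebpd was called higher with centring (1.36, adjusted p = 0.019) and with only the libraries compared (adjusted p = 0.00059). Cebpb stood at 26.4, 4.78 and 2.93 RPKM in the 3 monocyte libraries, high in pool I.

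Of 18 receptors for chemoattractants, 11 were higher and 5 lower in neutrophils, with a median of 2.09. Besides Cxcr1 and Cxcr2, the formyl peptide receptor Fpr1 stood at 5973, 5044 and 4385 RPKM against 104, 72.5 and 47.3 RPKM (6.16 ± 0.50, adjusted p = 2.9e-09), the C5a receptor C5ar1 at 2822 to 3420.2 against 389 to 515 RPKM, Ccr1 at 2250 to 3085 against 468 to 685, and the chemerin-binding Ccrl2 at 3954 to 5191 against 387 to 619. The genes lower in neutrophils included Ccr2, Cx3cr1, the fractalkine receptor (0.42 to 0.691 against 7.1 to 16.6 RPKM), the C3a receptor C3ar1 (1.27 to 3.76 against 55.7 to 78.1) and Cmklr1, the signalling receptor for chemerin (0.0026 to 0.219 against 2.71 to 3.56). The receptors for C5a and C3a thus went in opposite directions, as did the 2 for chemerin.

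Of 22 chemokine genes 5 were higher and 8 lower in neutrophils (4 and 12 with summed reads), shares close to the 23.3% and 34.9% among all genes, with a median of -0.50. Ccl3 and Ccl4, inflammatory chemokines, stood at 3895, 3727 and 2898 RPKM and 1926, 1796 and 1552 RPKM in neutrophils against 243, 157 and 146 RPKM and 225, 122 and 140.5 RPKM in monocytes. Ccl6 was higher as well (1363 to 1647 against 249.8 to 311 RPKM). Ccl2, the ligand of CCR2, was lower in neutrophils (9.4 to 43.6 against 46 to 93 RPKM, -1.65, adjusted p = 0.0057), but the call was lost with centring (-1.18), with only the libraries compared (adjusted p = 0.078, and 0.12 with the block as well), without the neutrophil library of pool V (-1.11) and without both libraries of pool I (-1.35) or V (-1.17). Also lower were Ccl9 (28.3 to 45.1 against 232 to 308), Cxcl16 (11.8 to 18.7 against 112 to 124) and the eosinophil attractant Ccl24 (5.29 to 11.7 against 40.8 to 119.6). Cxcl1 was not called (92.7 to 228 against 172 to 296 RPKM, adjusted p = 0.2), but was lower with the donor number as a block (adjusted p = 0.0027). It was also called lower with summed reads (-1.79) and with quantile normalisation (-1.60).

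Among 31 cytokine genes and receptors tested, 13 were higher and 6 lower, and the median of 0.49 was -0.64 with summed reads, where 10 were higher and 11 lower. Il1r2, the decoy receptor for interleukin 1, stood at 6044, 7964 and 7962 RPKM in neutrophils against 203, 344 and 247 RPKM in monocytes (4.81 ± 0.39, adjusted p = 3.4e-09), and its partner Il1rap at 149 to 213 against 10.4 to 12.5 RPKM. Tnf stood at 580.2, 600.3 and 428 RPKM against 120.2, 102 and 91.8 RPKM (2.35 ± 0.30, adjusted p = 1.8e-06). Csf1, a growth factor of monocytes and macrophages, stood at 92.5, 106 and 87.5 RPKM against 0.452, 1.49 and 1.21 RPKM, and Csf3, which encodes G-CSF, at a mean of 315 against 29.3 RPKM without overlap (3.42 ± 1.12, adjusted p = 0.013). The call for Csf3 was lost with summed reads (2.28) and without both libraries of any 1 tumour pool (3.37 to 3.46, adjusted p from 0.056 to 0.06). Csf1 was thus higher in the population with less of its receptor, Csf1r. Il15, which sustains natural killer cells, stood at 94.6 to 119 against 3.32 to 4.45 RPKM. Interleukin 6 went the other way, Il6 standing at 6.94, 7.69 and 4.32 RPKM against 96.7, 109.9 and 111 RPKM (-4.11 ± 0.46, adjusted p = 2.7e-07), and so did Lif of the same family (7.83 to 9.6 against 57.7 to 91.5 RPKM) and Tgfb1 (2.02 to 4.74 against 9.56 to 14.4).

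Receptors for microbial products were mostly higher in neutrophils. Of 17 Toll-like receptor genes and adaptors, 12 were higher and 3 lower (7 and 5 with summed reads), with a median of 1.45. Tlr4, for lipopolysaccharide, stood at 130.2 to 143 against 45.3 to 58.2 RPKM (its call was lost with summed reads and with quantile normalisation, at 0.32 and 0.58), Tlr6 at 94.7 to 154 against 11.4 to 20.6, and Tlr13, a receptor for bacterial ribosomal RNA, at 292 to 314 against 57.6 to 65.3. The lower ones were the flagellin receptor Tlr5 (2.72 to 3.62 against 10.6 to 12.8), Tlr7 (1.73 to 2.41 against 8.89 to 11.8) and Tlr9 (0.00255, 0.144 and 0.00255 RPKM against 3.23, 2.04 and 3.82 RPKM). The feedback genes of the NF-kB pathway Nfkbiz (1912 to 2436 against 143 to 174) and Tnfaip3 (700.1 to 839.8 against 125 to 138) were higher. C-type lectins were split within 1 cluster of chromosome 6. Clec4d (3457 to 4080 against 356 to 472 RPKM, 3.27) and Clec4e, the receptor Mincle (2785 to 3125 against 640.4 to 828, 2.01), were higher, whereas Clec4a1 (5.02 to 6.9 against 70.3 to 103, -3.95) and Clec4a3 (9.79 to 15.3 against 97.7 to 126, -3.29) were lower. Fc receptors for IgG were split too. Fcgr1, the high-affinity receptor, stood at 4.06, 2.42 and 1.41 RPKM in neutrophils against 110.1, 72.4 and 75.1 RPKM in monocytes, and the inhibitory Fcgr2b at 24.4 to 27.4 against 211 to 271 RPKM, while Fcgr4 was higher at 321 to 427 against 74.1 to 146 (1.93, adjusted p = 0.0013).

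**Figure D3:**
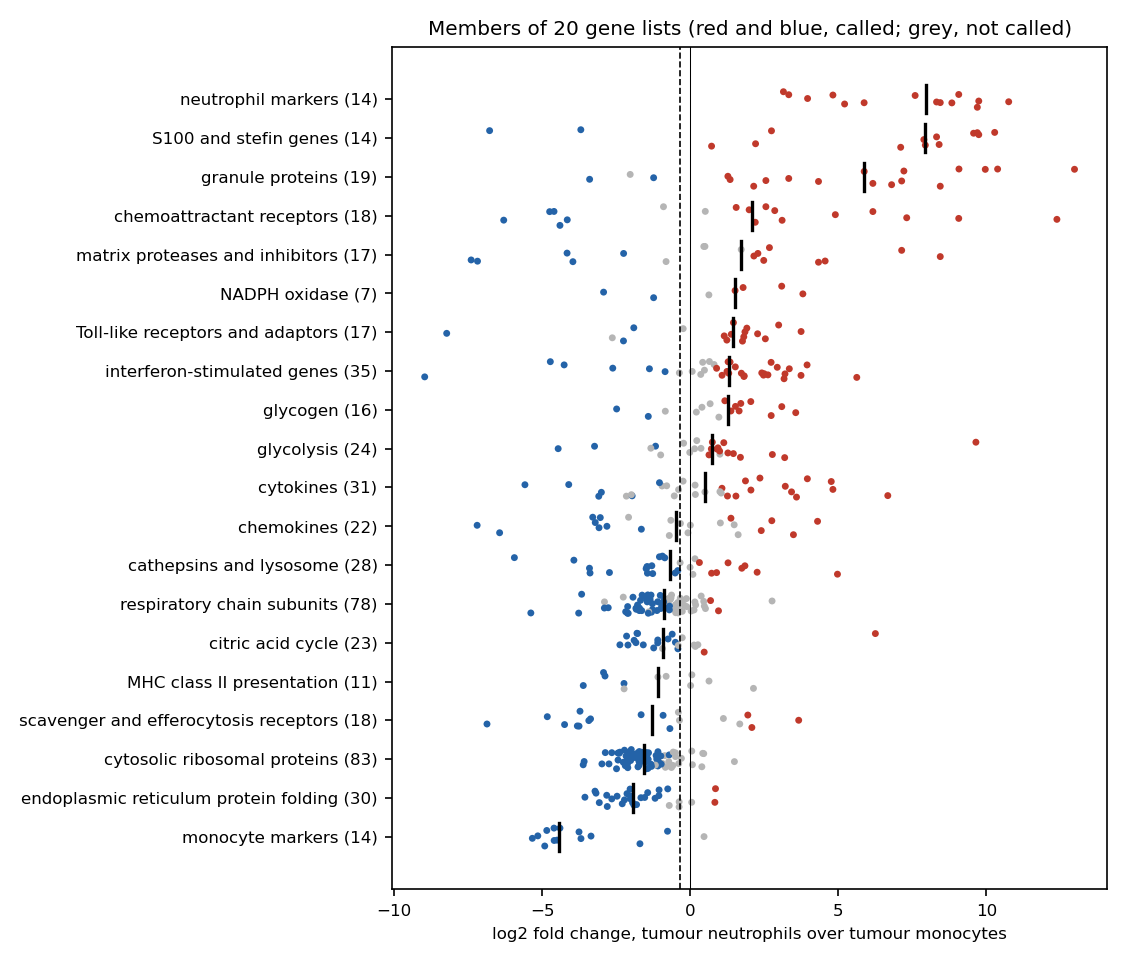
Log2 fold change (tumour neutrophils over tumour monocytes, horizontal) of the tested members of 20 gene lists, with the number tested in parentheses; dots are genes (red, called higher; blue, called lower; grey, not called), bars are list medians and the dashed line is the median of all genes tested (-0.36). Granule and S100 genes lie to the right, ribosomal protein and endoplasmic reticulum genes to the left, and chemokines, cytokines and Toll-like receptors on both sides.

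Interferon-stimulated genes were mostly higher in neutrophils, 22 of 35 tested, with 6 lower and a median of 1.30 (12 and 9, with a median of 0.16, with summed reads). The list took 0.906% to 1.13% of reads in neutrophils against 0.331% to 0.422% in monocytes. Slfn4, a Schlafen gene, stood at 3184, 2658 and 2934 RPKM against 61.3, 50.8 and 67 RPKM (5.62 ± 0.46, adjusted p = 3.7e-09), and was the most abundant member. Oas3 (188 to 267 against 19.5 to 27 RPKM), Isg20 (84.3 to 105 against 4.87 to 7.62) and Ifitm1 (436 to 659 against 28 to 56.7) were higher by 3.34 to 3.94 on the log2 scale. The Mx genes, GTPases against viruses, were lower: Mx1 stood at 0.0464 to 0.44 against 3.12 to 4.37 RPKM, and Mx2, without a read in neutrophils, was at least 14.5-fold lower. Gbp3 was lower as well (1.86 to 11.6 against 17.4 to 33.7).

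Genes of uptake and degradation were divided. Of 28 cathepsin and lysosome genes 8 were higher and 16 lower, with a median of -0.69 (4 and 21 with summed reads), and of 18 scavenger and efferocytosis receptors 3 were higher and 11 lower, with a median of -1.29. Lysosomal genes took 0.906% to 0.981% of reads in neutrophils against 2.65% to 2.93% in monocytes. Ctss, cathepsin S, which cuts the invariant chain, stood at 264, 164 and 192 RPKM against 2297, 1920 and 2160.3 RPKM (-3.39 ± 0.19, adjusted p = 2.3e-11), Lgmn at 29.6 to 35.5 against 301 to 415 RPKM, and the cholesterol carrier Npc2 at 31.3 to 57.1 against 259 to 317. The lysosomal membrane proteins were split. Lamp1 stood at 65.9, 16.6 and 32.8 RPKM in neutrophils against 558, 464 and 492 RPKM in monocytes, while Lamp2 was higher (381 to 399 against 99.4 to 135 RPKM, 1.74), as were Cd63 (79.8 to 100 against 13.4 to 22.9) and cathepsin D, Ctsd (1528 to 1564 against 386 to 519). For Ctsd 32.3% of the stretches occur in other genes. Of the scavenger receptors Msr1 stood at 5.09 to 5.9 against 97.8 to 117 RPKM, Lrp1 at 3.84 to 5.11 against 46.1 to 50.4 and Trem2 at 0.293 to 0.498 against 4.72 to 5.55. In MHC class II presentation limma called 4 of 11 lower and 0 higher (0 at an unadjusted p under 0.05, 0 by voom): the editors H2-DMa (7.07 to 9.48 against 58.1 to 72.2) and H2-DMb1 (7.24 to 9.93 against 37.1 to 41), the activator Ciita (0.246 to 0.349 against 1.56 to 3.47) and H2-DMb2. The share lower was close to the 34.9% among all genes, and the median was -1.09.

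Proteases and adhesion molecules were divided by gene. Of 17 matrix proteases and inhibitors, 8 were higher and 5 lower, with a median of 1.72. Beside Mmp8 and Mmp9, the higher genes included Adam8 (1934 to 2345 against 388 to 521 RPKM), the urokinase receptor Plaur (10048, 9767 and 10163 RPKM against 1741, 1403 and 1582 RPKM) and Timp2 (13.8 to 25.4 against 0.764 to 0.856). The lower genes included Timp1, the membrane-bound Mmp14 (2.41 to 6.39 against 72 to 77.5) and Mmp19 (14 to 20.8 against 208 to 337), so that the inhibitors Timp1 and Timp2 went in opposite directions. Of 16 integrin and adhesion genes 8 were higher and 4 lower (4 and 7 with summed reads), with a median of 0.76. Itgb2l, an integrin beta 2-like gene, stood at 55.4 to 117 against 0.00302 to 0.292 RPKM. Itgb1 (15.8 to 18 against 63 to 68.6) and Itgb7 (8.51 to 29.9 against 126 to 160) were lower. Itgam, which encodes the CD11b of both gates, stood at 564 to 662 against 226 to 245 RPKM, but 66.3% of its stretches occur in other genes.

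Enzymes of oxygen, nitrogen and lipid mediators followed. Of 7 subunits and GTPases of the phagocyte NADPH oxidase, 4 were higher and 2 lower, with a median of 1.51. The cytosolic Ncf1 stood at 905, 954 and 711 RPKM against 81.1, 60 and 46.7 RPKM (3.80 ± 0.20, adjusted p = 6.1e-12). The GTPases Rac1 and Rac2 went in opposite directions: Rac2 stood at 1547, 1339 and 1292 RPKM against 182, 154 and 157 RPKM, and Rac1 at 40.7, 23.8 and 29.8 RPKM against 308, 201 and 206 RPKM. The arginases did the same. Arg1 stood at 125, 148 and 89.4 RPKM in neutrophils against 1408, 1377 and 1697 RPKM in monocytes (-3.65 ± 0.57, adjusted p = 1.9e-05), and Arg2, the mitochondrial enzyme, at 1861, 2308 and 2382 RPKM against 337, 338 and 315 RPKM (2.72 ± 0.42, adjusted p = 1.5e-05). Ass1, which remakes arginine from citrulline, was lower in neutrophils (mean 9.71 against 141 RPKM), but 38.4% of its stretches occur in other genes. Nos2 was not called (30.6 to 114 against 26 to 76.2, adjusted p = 0.69). Of the leukotriene pathway, Alox5, 5-lipoxygenase, stood at 117, 127 and 111 RPKM against 0.0184, 0.726 and 0.867 RPKM (9.03 ± 1.46, adjusted p = 2.5e-05), with its activating protein Alox5ap at 1136 to 2029 against 342 to 626 RPKM. Pla2g4a, which frees arachidonic acid, was lower at 1.81 to 5.16 against 19.4 to 23.3.

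Of 24 glycolysis genes 13 were higher and 3 lower with the deposited scaling, with a median of 0.73, but 4 were higher and 11 lower, with a median of -0.41, with summed reads. Relative to all genes the median was 1.09 higher as deposited, but with quantile normalisation it was -0.25 relative to all genes, with 5 higher and 10 lower. The transporter Slc2a3 (GLUT3) stood at 805, 772 and 759 RPKM in neutrophils against 0.508, 1.11 and 1.63 RPKM in monocytes (9.64 ± 0.69, adjusted p = 5e-10). Lactate transporters went in opposite directions: Slc16a3 (MCT4) stood at 1925 to 1971 against 183 to 240.3 RPKM and Slc16a1 (MCT1) at 0.0575 to 1.67 against 7.13 to 14.2. So did hexokinases, Hk3 being higher (234 to 305 against 30.9 to 43.5) and Hk2 lower (17.8 to 28.7 against 48.2 to 62.1), and the lactate dehydrogenase subunit Ldhb was lower (1 to 2.3 against 13 to 16.5). Glycogen genes were higher for 9 of 16 and lower for 2, with a median of 1.27 (5 and 5 with summed reads). The phosphorylase Pygl stood at 718, 674 and 657 RPKM against 89.8, 74.3 and 77.6 RPKM, the branching enzyme Gbe1 at 9.72 to 10.3 against 2.11 to 2.86 RPKM, and the targeting subunit Ppp1r3d at 37.5 to 61 against 3.66 to 4.7. Of 23 genes of the citric acid cycle and its exits 15 were lower and 2 higher (10 and 5 with centring), with a median of -0.94. Idh1 stood at 4.52 to 14.1 against 31.8 to 50.2 RPKM, Fh1 at 0.871 to 2.46 against 4.14 to 9.29, Mdh1 at 7.77 to 10.3 against 29.6 to 32.9 and Sucla2 at 3.47 to 4.87 against 12.7 to 18. Acod1, which draws on the same cycle, was the member with the largest rise. Among 78 nuclear-encoded respiratory chain subunits 42 were lower and 2 higher, with a median of -0.89, and mitochondrially encoded genes took 0.329% to 0.412% of reads against 0.994% to 1.58%.

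Genes for making and folding proteins were lower in neutrophils as groups. Of 83 cytosolic ribosomal protein genes tested 64 were lower and 0 higher by limma (1 at an unadjusted p under 0.05, 0 by voom), beside 34.9% lower and 23.3% higher among all genes, and their median was -1.55 (-1.08 with centring, where 53 were lower and 4 higher). Their reads were 0.0716% to 0.104% of a neutrophil library and 0.48% to 0.685% of a monocyte library. Rpl4 stood at 219, 184 and 171 RPKM against 863, 689 and 788 RPKM (-2.03 ± 0.14, adjusted p = 4.2e-10), Rpsa at 8.83 to 22.4 against 64.7 to 161 RPKM and Rplp0 at 140.1 to 242 against 560.2 to 875, while Rps27 was not called (56.3 to 88.6 against 47.8 to 59.9). Rps27 was called higher with centring (0.89) and lower with summed reads (-0.71). Ribosomal protein genes have many processed copies in the genome, and for Rplp0 and Rpsa 32.5% and 28.6% of stretches occur in other genes. Of 30 genes for folding and translocation in the endoplasmic reticulum 24 were lower and 2 higher, with a median of -1.93. Pdia6, a disulphide isomerase, stood at 11.8, 11.2 and 9.92 RPKM against 90.2, 91.3 and 120.2 RPKM (-3.19 ± 0.12, adjusted p = 9e-14), Hsp90b1 at 17.1 to 20.2 against 98.7 to 143 RPKM, the oligosaccharyltransferase subunit Ddost at 17.1 to 22.4 against 121 to 154 and Sdf2l1 at 3.05 to 4 against 35.5 to 48.4. Hspa5, the chaperone BiP, was not called (362 to 519 against 475 to 700.2, adjusted p = 0.11, and 0.048 with the block). It was called lower with summed reads (-1.51) and with quantile normalisation (-1.75).

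**Figure D4:**
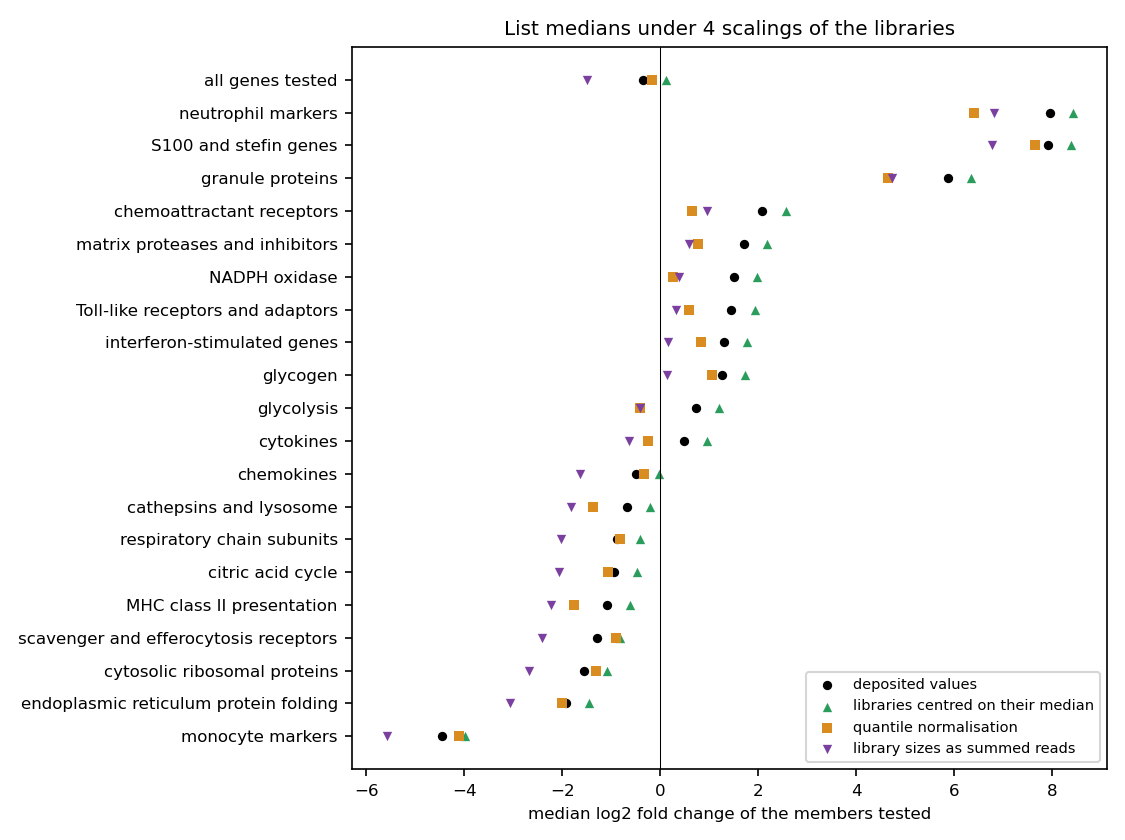
Median log2 fold change (tumour neutrophils over tumour monocytes) of the members tested in 20 gene lists and of all genes tested, with the deposited scaling (circles), libraries centred on their median (triangles up), quantile normalisation (squares) and library sizes as summed reads (triangles down). The markers and the granule, ribosomal protein and endoplasmic reticulum lists keep their side of 0, whereas glycolysis and cytokines change sides.

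Of 14 Bcl2 family genes 6 were higher and 2 lower (2 and 5 with summed reads), with a median of 0.72. Bcl2l1, which encodes the survival factor BCL-XL, stood at 458, 359.6 and 359 RPKM against 18.6, 10.6 and 9.58 RPKM (4.98 ± 0.24, adjusted p = 2.1e-12), and Bcl2l11, the pro-apoptotic BIM, was higher too (339.9 to 367 against 44 to 61.7 RPKM). The pore-former Bax was lower (5.26 to 14.6 against 29.7 to 45.6). Of 13 inflammasome and cell death genes 5 were higher and 4 lower (2 and 8 with summed reads), with a median of -0.11. Nlrp3, the inflammasome sensor, stood at 569 to 697 against 74.5 to 116 RPKM, and Casp4, the caspase activated by intracellular lipopolysaccharide, at 195 to 218 against 32.9 to 42.7. Iron genes were higher for 9 of 16 and lower for 4 (4 and 5 with summed reads), with a median of 1.08. Beside Fth1 and Lcn2, the iron exporter Slc40a1, ferroportin, stood at 17.5, 22.3 and 38.7 RPKM in neutrophils against 0.12, 0.221 and 0.439 RPKM in monocytes (6.77 ± 0.38, adjusted p = 1.7e-11), and the ferrireductase Steap4 at 274 to 434 against 3.59 to 5.81 RPKM.

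The remaining lists had members called in both directions, and are given as the number higher and lower, with the numbers with summed reads and the median as deposited in parentheses, beside 23.3% higher and 34.9% lower and a median of -0.36 among all genes. Of 18 growth factor receptors 9 were higher and 2 lower (3 and 10; median 0.61), of 18 eicosanoid genes 6 and 6 (3 and 8; median 0.51), and of 9 genes of arginine and nitric oxide 2 and 4 (2 and 6; median -0.25). Of 19 complement genes 7 were higher and 7 lower (2 and 11; median -0.45), of 14 genes of MHC class I presentation 3 and 6 (1 and 9; median -0.01), and of 25 cholesterol synthesis genes 5 and 6 (3 and 15; median -0.13). Of 38 S and G2/M genes 2 were higher and 9 lower (2 and 20; median -0.24), of 13 C-type lectins 4 and 5 (3 and 8; median 0.11), and of 9 Fc receptors 5 and 3 (1 and 3; median 1.43).

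In LP the same comparison gave 3103 genes higher (24.1%) and 3913 lower (30.4%) in neutrophils. It shares no library with the tumour comparison, but both used 1 fit with the same estimate of each gene's spread, so their calls are not independent. Of the genes called higher in tumour, 77.6% were called higher in LP, and of those called higher in LP 75% were called higher in tumour. For lower genes the shares were 64.9% and 74.5%. There were 31 genes higher in tumour and lower in LP, and 54 the reverse. Across the genes tested, which are not independent replicates, the log2 fold changes correlated with a Pearson r of 0.724 and a Spearman rho of 0.748.

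The difference of the neutrophil-monocyte fold change between tumour and LP was called for 465 genes in the positive direction (3.61%) and 708 in the negative (5.5%). Tissue, strain label, DSS concentration, cell isolation and pools differ together here and cannot be told apart. The leading positive differences stood with high values in LP monocytes. Lypd3, Krt17, Jup and Hspb1, genes of squamous epithelium and stress, and Ifi202b were high in the LP monocyte libraries of pools III and V and low in that of pool IV: Lypd3 stood at 40.4, 1.22 and 123 RPKM there (pools III, IV and V) and at 0.00545, 0.458 and 0.726 RPKM in tumour neutrophils, with no read in tumour monocytes, and Krt17 at 79.9, 1.32 and 27.5 RPKM. Jup stood at 41.2, 4.99 and 26.8 RPKM and Hspb1 at 17.8, 1.68 and 13.9 RPKM in LP monocytes, and Ifi202b at 24.1, 0.313 and 34.9 RPKM. For Hspb1 48.7% of the 51-base stretches occur in other genes. In tumours limma called 0 of the 5 (adjusted p from 0.061 to 0.7). Without the LP monocyte library of pool III or V the differences of Krt17, Ifi202b and Hspb1 were 10.01 or 10.78, 8.06 or 7.79, and 3.49 or 3.67, with adjusted p from 0.052 to 0.077, and those of Lypd3 and Jup were still called. Leaving out single tumour libraries also lost calls: Krt17 without Tu_Mo I or II or Tu_Ne V, Ifi202b without Tu_Mo I or II or Tu_Ne I, and Hspb1 without Tu_Mo I. With voom on the recovered reads limma called 0 of the 5 (adjusted p of 0.29 for Lypd3, 0.24 for Krt17, 0.35 for Ifi202b, 0.32 for Hspb1 and 0.056 for Jup).

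Among the negative differences, Car13, a carbonic anhydrase, stood at 0.00386, 0.00386 and 0.117 RPKM in tumour neutrophils and 4.6, 5 and 5.03 RPKM in tumour monocytes, against 1.02 to 4.62 and 11.3 to 15.2 RPKM in LP (difference -6.23 ± 1.20 (SE), adjusted p = 0.0028); on the log2(RPKM + 1) scale it was -0.52 and not called. Tlr9 stood at 2.05 to 2.76 and 11.3 to 12.6 RPKM in LP neutrophils and monocytes (difference -5.84 ± 1.46, adjusted p = 0.016); on the log2(RPKM + 1) scale the difference was 0.065, and with voom its call was lost (-4.16, adjusted p = 0.15). Ccl7, a ligand of CCR2, had no read in 2 tumour neutrophil libraries (0.0111, 1.24 and 0.0111 RPKM) and stood at 2.05 to 4.2 RPKM in LP neutrophils (difference -5.26 ± 1.53, adjusted p = 0.035). Its call was lost with voom (-3.59, adjusted p = 0.32) and without 9 of the 12 libraries taken singly (-5.45 to -4.13). Rcan1, an inhibitor of calcineurin, stood at 57.2, 44.6 and 79.8 RPKM in tumour monocytes against 4.54 to 13.3 in LP monocytes, with 2.66 to 6.57 and 5.47 to 9.76 in neutrophils (difference -3.77 ± 0.57, adjusted p = 0.0004). Mmd was lower in neutrophils than in monocytes in tumour (1.4 to 2.34 against 8.69 to 16 RPKM) and higher in LP (10.8 to 13 against 5.85 to 8.42).

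Some genes that led the tumour comparison differed between tissues in size. Acod1 rose by 6.25 on the log2 scale in tumour and by 3.81 in LP, where neutrophils stood at 4602, 3242 and 3479 RPKM and monocytes at 299, 292 and 216 RPKM (difference 2.44 ± 0.32, adjusted p = 0.00012). Lyz2 was lower in neutrophils by less in tumour (-1.14) than in LP (-2.41), and Mgat2 by more (-6.09 against -2.66). Tnf, Csf1, Nfkbiz, Tnfaip3, Plaur and Nr4a1 had larger rises in tumour, by 1.17 to 2.05 on the log2 scale. Among the 28 neutrophil and monocyte markers a difference between tissues was called for 1, Mpeg1.

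**Figure D5:**
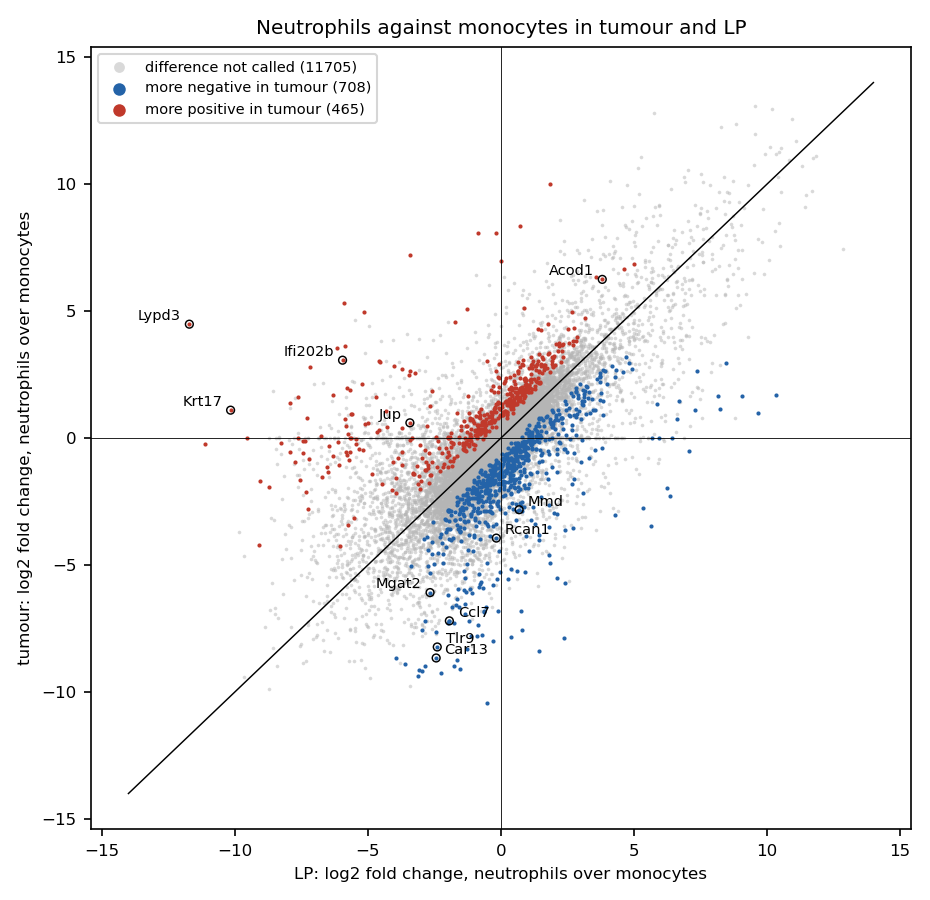
Log2 fold change of neutrophils over monocytes in LP (horizontal) and in tumour (vertical) for the 12878 genes tested; the diagonal marks equal fold changes, and red (465) and blue (708) points are genes whose fold change was called more positive or more negative in tumour. Lypd3, Krt17 and Ifi202b lie far left of the diagonal, and Rcan1 and Mmd below it.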

How the data were processed

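RNA of sorted cells was sequenced in 24 libraries, 6 of which are compared here. Per the labels and the methods, the authors made libraries by a modified SMARTSeq v2 protocol without molecular identifiers, aligned reads with STAR 2.3 to GRCm38/mm10 and counted them with featureCounts 1.5; edgeR is named in the submitters' processing notes without a version. The deposited values are log2 RPKM per gene with a prior count that averages 0.25 reads and scaled library sizes, and genes with few reads in every population had been left out by the authors. From each value the whole number of reads was recovered (100% of 415224 values within 0.001), which gave depths, floors and counting intervals; these cover counting error only. Names and positions of 17190 genes came from GENCODE M21.

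Here limma 3.58.1 (R 4.3.3) was fitted to the log2 values of all 8 groups, which share 1 estimate of the spread, with Benjamini-Hochberg adjustment over the 12878 genes at a mean of at least 1 RPKM in any group. An exact permutation test of 3 against 3 cannot go below p = 0.1. A fit was tried on reads simulated for tumour neutrophils and monocytes alone, with known library sizes. It therefore does not bear on the fit of 8 groups or on how libraries were scaled. Named genes were the 12 largest rises and 12 largest falls among called genes without overlap at a mean of at least 10 RPKM, the 5 most abundant called genes of each population, the 5 largest differences between tissues in each direction, and list members; a few list members are not reported here. The members and lists were chosen with earlier results of these data known. Donor numbers pair neutrophil and monocyte libraries by label; deviations from the group means correlated between libraries of 1 donor by 0.011, -0.021 and 0.047 (I, II and V), and the fit with the donor number as a block was an alternative. Alternatives changed the pseudocount, the filter, the normalisation, the samples fitted and the weights, and left out libraries. Summed reads as library sizes and leaving out both tumour libraries of 1 donor number were chosen after seeing the data. edgeR and DESeq2 were not run here. Of the alternatives, voom used the recovered reads. Python 3.11.15 with pandas 2.3.3 and matplotlib 3.10.9 was used for the rest. Promoters came from RefSeq.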

Additional observations from a re-analysis of the deposited data

Results flagged for a closer look

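The difference of the neutrophil-monocyte log2 fold change between tumour and LP was tested (limma, Benjamini-Hochberg adjusted p under 0.05). Among all 12878 genes tested it was called more positive in tumour for 3.61% and more negative for 5.5%. The fold change differed for 28 of the genes named in the text, some of them chosen for this difference, so 28 is not a share to set against these. Their differences, tumour minus LP, follow. It was more positive in tumour for Acod1 (2.44), Lyz2 (1.27), Csf1 (2.05), Tnfaip3 (1.41), Nr4a1 (1.58), Tnf (1.62), Msr1 (1.78), Slc16a3 (0.84), Hk3 (1.12), Ifit1 (2.12), Nfkbiz (1.17), Plaur (1.36) and C5ar1 (0.90). Of these Lyz2 and Msr1 were lower in neutrophils than in monocytes in both tissues, and the others had positive fold changes in both. It was more negative in tumour for Mgat2 (-3.42), Pdia6 (-1.08), Mx2 (-6.12, without a read in tumour neutrophils), Itgb1 (-0.97) and Mpeg1 (-0.86). Among the genes chosen for the size of this difference it was more positive for Lypd3 (16.19), Krt17 (11.26), Ifi202b (9.02), Hspb1 (4.12) and Jup (4.02), of which the LP monocyte libraries of pools III and V were high and that of pool IV low, and more negative for Car13 (-6.23), Tlr9 (-5.84), Ccl7 (-5.26), Rcan1 (-3.77) and Mmd (-3.51). Tissue, strain label, DSS concentration, cell isolation and pools cannot be told apart in these differences. Mx2 had no read in tumour neutrophils and Lypd3 none in tumour monocytes. The sizes given for Mx2 and Lypd3 therefore depend on the small value that a library without a read carries, and are not measured sizes.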

How the results depend on the processing

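The counts of genes higher (2997) and lower (4489) in tumour neutrophils and of genes with a difference between tissues (1173) stayed within 1.5 times of these values except as follows. Summed reads as library sizes, added after seeing the data, gave 1343 higher, 7347 lower and 1823 differences. Quantile normalisation gave 532 differences. The replicate block (donor number) with only the libraries compared gave 2837 lower and 468 differences, while the block in the full fit gave 3050, 4544 and 1306. Leaving out libraries gave 2559 to 2838 higher, 3858 to 4370 lower and 834 to 1284 differences. With the block in the full fit C1qb was called lower in neutrophils (adjusted p = 0.02), and the call of Cd3d was lost. Apart from these and the values given with the block above, it changed no call of the named genes followed under each alternative. The block with only the libraries compared lost the calls of Timp1, S100a4, Htr7, Fth1, Il1b, Lyz2, Adgre1, Idh1, Fh1, Cebpa, Ccl2 and Cmklr1 (adjusted p from 0.052 to 0.14) and, among differences between tissues, of Ifi202b, Hspb1, Car13, Tlr9 and Ccl7 (0.069 to 0.19). With only the libraries compared and no block, Htr7, Fth1, Adgre1, Cebpa, Ccl2 and Igha were lost. Centring lost Lyz2, mt-Co1, Chil3, Adgre1, Ccl2 and Mpeg1. The share of calls that were higher was 40% as deposited, 53.7% with centring, 15.5% with summed reads, 41.9% with quantile normalisation and 45.3% with voom. Calls lost with quantile normalisation, beside those named, included Mmp8, Ctsd, Arg2, Adam8, Ccr1, Clec4e, Itgam, Hp, Fcgr4, Alox5ap and Igha. Htr7 was lost without tumour pool V (-4.08) and Adgre1 without tumour pool I (-0.38), and Igha without any of 4 single tumour libraries (2.96 to 4.10). The difference of Tlr9 turned from -5.84 to 0.065 on the log2(RPKM + 1) scale (adjusted p = 0.96), where low values count less. The cause of the other changes was not tested. At 15886920 reads or more a library, genes with at most 3 reads have no reliable level.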
